A study of Homo sapiens with 12 samples.

Results

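The 94 genes described here encode subunits of the mitochondrial respiratory chain and of ATP synthase, and they were followed in a breast cancer cell line at normal and low oxygen and after knockout of CCAR2. They were chosen by symbol from 60664 rows of the expression table: the NDUFA, NDUFB, NDUFC, NDUFS and NDUFV genes, the UQCR genes, the COX genes for subunits 4 to 8 of cytochrome c oxidase, the ATP5 genes, and the protein-coding genes of mitochondrial DNA. Of these, 81 are nuclear and 13 are mitochondrial. The nuclear genes were divided into 36 of complex I, 8 of complex III, 18 of complex IV and 19 of complex V (ATP synthase), and NDUFA4 and its paralog NDUFA4L2 were counted with complex IV. The mitochondrial genes comprise 7 of complex I, 1 of complex III, 3 of complex IV and 2 of complex V. A further 51 symbol matches are pseudogenes and were left out. The ATP5 pseudogenes held counts equal to between 0.0461% and 0.0686% of those of the ATP5 genes in any library.

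The respiratory chain passes electrons from NADH through complex I, or from succinate through complex II, to ubiquinone, on to cytochrome c through complex III, and finally to oxygen through complex IV. The protons pumped on the way drive ATP synthase. Most subunits are encoded in the nucleus and imported, while the hydrophobic core of complexes I, III, IV and V is transcribed inside the mitochondrion from long transcripts that are cut into separate RNAs. Some subunits have paralogs that replace the usual partner in certain tissues or under low oxygen, among them NDUFA4L2 and COX4I2, which are known as targets of hypoxia-inducible factors in other cells.

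MDA-MB-231 is a triple-negative, mesenchymal-like human breast cancer line. The 12 libraries comprised 4 of untreated wild-type cells under normoxia (WT normoxia), 4 of wild-type cells kept in 1% oxygen for 24 hr (WT hypoxia), and 4 of untreated CCAR2 knockout cells under normoxia (CCAR2 KO); CCAR2 is also named DBC1. The knockout was made with LentiCRISPR, and whether the cells are a single clone is not given in the sources used here. The study's methods speak of triplicates and of fewer replicates in the test, while the labels give 4 libraries a group, so that p-values measure the spread between these libraries, which may be technical. The same WT normoxia libraries are the control for both hypoxia and the knockout.

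Total counts ranged from 68599412 to 213743693 per library. CCAR2 itself was at 146 ± 3.11 CPM (library-scaled counts after TMM normalization, SD, n = 4) in WT normoxia and at 57.8 ± 2.81 CPM in CCAR2 KO, so its RNA was lower in every knockout library but still present. Under hypoxia CA9, a carbonic anhydrase used as a marker of low oxygen, was at 4.90 ± 0.399 CPM against 0.0649 ± 0.0232 CPM. The mesenchymal marker VIM was at or above 4408 CPM in every library, and ESR1, PGR and CDH1 were at or below 0.470 CPM. EPCAM, an epithelial marker, and GATA3 had also been listed as absent or low in this line. They stood between 11.7 and 17.9 CPM and between 4.83 and 8.21 CPM. In every library more genes stood at a count of 4 than at 3 or 5, so a single count cannot be read as a single sequenced fragment.

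The nuclear genes together held a small and steady share of each library, and the mitochondrial genes several times more. In WT normoxia the 81 nuclear genes held 0.752%, 0.845%, 0.854% and 0.783% of all counts in replicates 1 to 4. Under hypoxia they held 0.775%, 0.892%, 0.770% and 0.840%, and in CCAR2 KO 0.727%, 0.761%, 0.758% and 0.738%. Hypoxia replicate 2 stood above all normoxia libraries and the other hypoxia libraries among them, and of the normoxia libraries only replicate 1 lay within the range of the knockout. The 13 mitochondrial genes held 4.35%, 4.21%, 4.22% and 4.18% in WT normoxia. Their share was 3.94%, 4.41%, 3.37% and 3.65% under hypoxia, where replicate 2 stood above all normoxia libraries and the other 3 below them, and 4.72%, 4.51%, 4.38% and 4.27% in CCAR2 KO. The ratio of mitochondrial to nuclear counts was 5.26 ± 0.392 in WT normoxia, 4.69 ± 0.380 under hypoxia and 6.0 ± 0.337 in CCAR2 KO (SD, n = 4). Each knockout library was above each normoxia library in this ratio, though the closest libraries stood at 5.785 and 5.781.

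**Figure D1:**
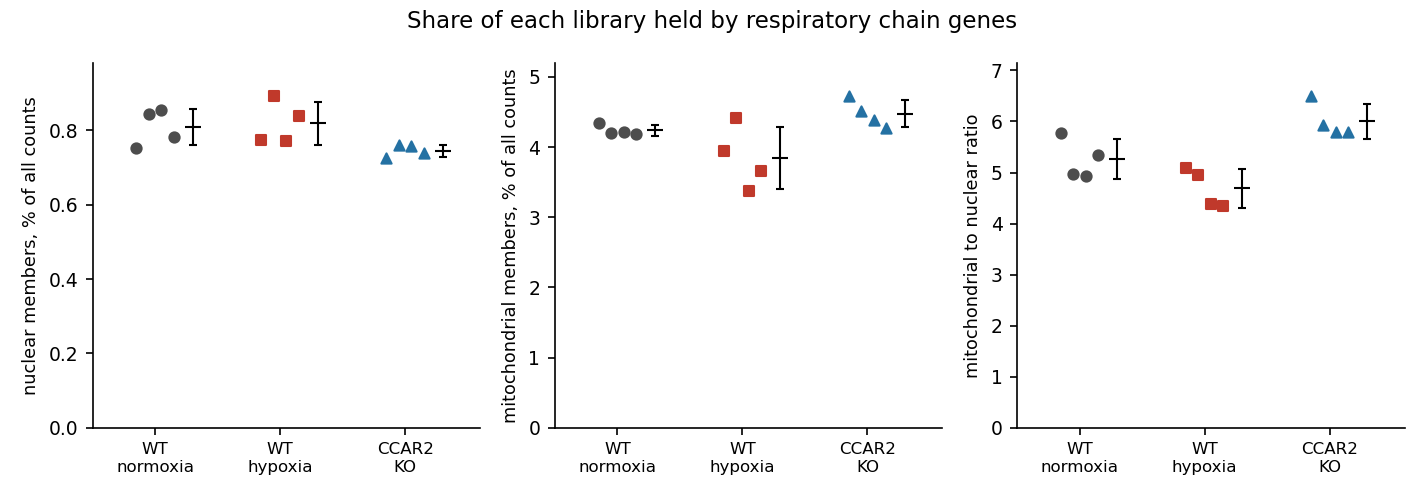
Share of all counts held by the 81 nuclear and the 13 mitochondrial respiratory chain genes, and the ratio of both shares, for each of the 4 libraries of WT normoxia, WT hypoxia and CCAR2 KO. Points are libraries and the bars beside them give the mean and SD; the knockout libraries have the highest ratios, and the mitochondrial share is most spread under hypoxia, from 3.37% to 4.41%.

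Compared per kilobase, the transcripts of mitochondrial DNA were all more abundant than any nuclear gene of the chain. MT-CO1, the catalytic subunit of complex IV, led with 8744 CPM per kilobase of exon in WT normoxia. It was followed by the ATP synthase subunit MT-ATP6 at 6185 and by MT-CO2 at 6170 CPM per kilobase, a pair that did not differ beyond the spread of the libraries. MT-ND6, the one protein-coding gene read from the other strand of mitochondrial DNA, had the lowest mean at 1133 CPM per kilobase. MT-ND5 was next at 1213, and the libraries of both overlapped. Whether the counting used strand is not given in the sources used here, so counts of MT-ND6 may include reads from the opposite strand. The highest nuclear gene was ATP5F1B, the catalytic beta subunit of ATP synthase, at 492.6 CPM per kilobase of exon, followed by the complex IV subunit COX8A at 467.4. At the other end, NDUFA3 of complex I stood at 1.51 CPM per kilobase, and the tissue-restricted isoforms NDUFA4L2, COX7B2, COX7A1 and COX6B2 lay between 0.0975 and 0.214. The median mitochondrial gene was 81.1 times the median nuclear gene per kilobase of exon, and 37.1 times when length was taken from the principal transcripts, a measure of length added after seeing the data.

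The isoforms that replace a usual partner were weakly expressed or without counts in this line. COX4I2, the lung and hypoxia isoform of subunit 4, had a count of 0 in 11 of the 12 libraries and a count of 5 in CCAR2 KO replicate 4. A count of 0 allows up to 3 counts, which is 0.0140 to 0.0437 CPM depending on the library if each count is a fragment, and more if a fragment was given several counts, whereas its partner COX4I1 was between 181.2 and 255.4 CPM. COX6A2, the heart and muscle isoform of subunit 6A, and COX8C, a testis isoform of subunit 8, had a count of 0 in all 12 libraries. These limits cover counting error only.

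NDUFA4L2 (chr12:57234903-57240715 on GRCh38) was at 0.261, 0.602, 0.537 and 0.556 CPM in WT normoxia. It was at 1.01, 0.624, 0.432 and 0.461 CPM under hypoxia and at 0.203, 0.459, 0.351 and 0.449 CPM in CCAR2 KO. The groups overlapped, replicate 1 being the highest of the hypoxia libraries and the lowest of both other groups. The counts behind these values were 47 to 112 in WT normoxia, 51 to 91 under hypoxia and 28 to 59 in the knockout. Against normoxia the log2 fold change was 0.34 ± 0.34 (SE) under hypoxia, with an adjusted p of 0.529 in edgeR's quasi-likelihood test. In the knockout it was -0.43 ± 0.33, with an adjusted p of 0.376 in the same test. NDUFA4L2 reached 0.800% ± 0.321 of the CPM of NDUFA4 under hypoxia and 0.565% ± 0.160 in WT normoxia (SD, n = 4), a difference in log2 ratio of 0.42 (two-sided exact permutation test, p = 0.2, adjusted p = 0.3 over 12 such comparisons). NDUFA4L2 shares exon bases with SHMT2 on the opposite strand, and whether the counting used strand is not given in the sources used here. In all, 50 of the 94 members share exon bases with another gene on either strand, and only some of these are named below.

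COX6B2 (chr19:55349306-55354814), the testis isoform of subunit 6B, was the isoform whose hypoxia libraries all stood above the other libraries. It was at 0.284, 0.407, 0.326 and 0.471 CPM in WT normoxia. It was at 0.595, 0.588, 0.499 and 0.775 CPM under hypoxia and at 0.268, 0.287, 0.260 and 0.130 CPM in CCAR2 KO. The knockout overlapped with normoxia. Hypoxia against normoxia gave a log2 fold change of 0.72 ± 0.25 with an adjusted p of 0.0557, which missed the threshold of 0.05 in edgeR's test and passed both thresholds in DESeq2 and limma-voom. COX6B2 was 0.514% ± 0.0822 of COX6B1 under hypoxia, 0.294% ± 0.0738 in WT normoxia and 0.194% ± 0.0536 in CCAR2 KO. The log2 ratio differed by 0.69 between hypoxia and normoxia (exact permutation test, p = 0.0286, the smallest that 4 against 4 libraries can give, adjusted p = 0.114). With a pseudocount of 0.5 CPM in place of 0.1 CPM this difference was 0.44.

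COX7B2 (chr4:46734827-46909235), the paralog of subunit 7B, had very low counts. Its counts were 22, 24, 47 and 32 in WT normoxia, and 12, 0, 4 and 0 in CCAR2 KO. The corresponding levels were 0.122, 0.134, 0.225 and 0.209 CPM against 0.0868, 0, 0.0260 and 0 CPM, and the groups did not overlap. The fitted log2 fold change was -2.46 ± 0.81. COX7B2 passed the filter on low counts only through WT normoxia, the group in which it was high, so its adjusted p under 0.05 is not given as support. Without the filter the adjusted p in edgeR's test was 0.0659. The call was also lost when any of WT normoxia replicates 2, 3 and 4 or CCAR2 KO replicates 2, 3 and 4 was left out, and the log2 fold change ranged from -3.93 to -2.05 when the fit was repeated without each library. Its partner COX7B was at 37.6 ± 3.62 CPM in WT normoxia and 39.4 ± 2.50 CPM in the knockout. COX7A1, the muscle isoform of subunit 7A, was between 0.110 and 0.431 CPM and overlapped in all groups. None of the 12 isoform comparisons passed at an adjusted p of 0.05.

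**Figure D2:**
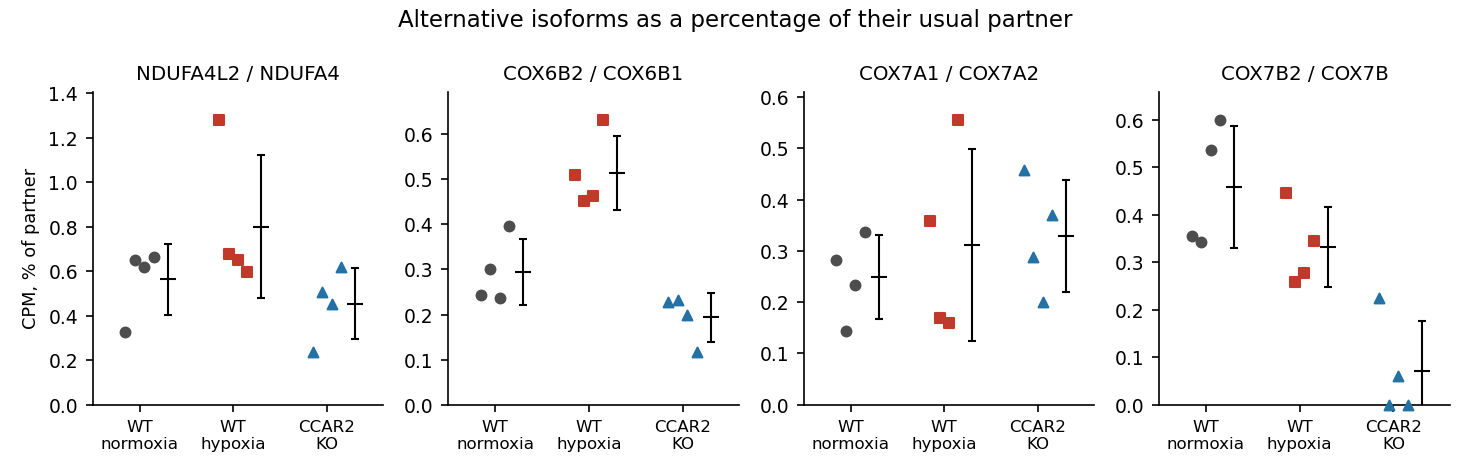
CPM of 4 alternative isoforms as a percentage of the CPM of their usual partner in each of the 4 libraries of WT normoxia, WT hypoxia and CCAR2 KO, with the mean and SD beside the points. All isoforms are at or below 1.28% of the partner, the COX6B2 points of hypoxia are above its points in both other groups, and COX7B2 is at 0 in 2 knockout libraries.

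The first comparison asked how 24 hr of low oxygen changed the transcripts of the chain. The nuclear genes had a median difference of 0.01 on the log2 scale, while a few small complex I genes rose and the mitochondrial genes MT-ND1, MT-ND2 and MT-ATP6 fell. Of the 94 genes, 90 had enough counts to be tested, and COX4I2, COX6A2, COX8C and ATP5MGL had not. In edgeR's test over 21776 genes, no member passed both thresholds, an adjusted p under 0.05 and a log2 fold change of 0.5 or more in size, where 5.83% of all genes tested were higher and 1.43% lower by that rule. At an unadjusted p under 0.05, 7 members were higher and 5 lower, where 17.1% of all genes tested were higher and 18.2% lower. DESeq2 and limma-voom each called 1 member, COX6B2. By the adjusted p alone, 3 members were higher and 3 lower, or 3.33% of the members in each direction, where 11.6% of all genes tested were higher and 12% lower. Of the protein-coding genes tested, 14% were higher and 16.7% lower. With the trend on GC content and length removed, an alternative added after seeing the data, 4 members were higher and 14 lower, where 11.4% of all genes were higher and 15.4% lower. Members whose 4 hypoxia libraries lay wholly above those of normoxia numbered 2, NDUFV1 and COX6B2, and wholly below 3, against 13.7% and 12.7% of all genes tested. The median log2 fold change was 0.01 over the 77 nuclear genes tested, -0.13 over the 13 mitochondrial genes and 0.01 over all genes.

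**Figure D3:**
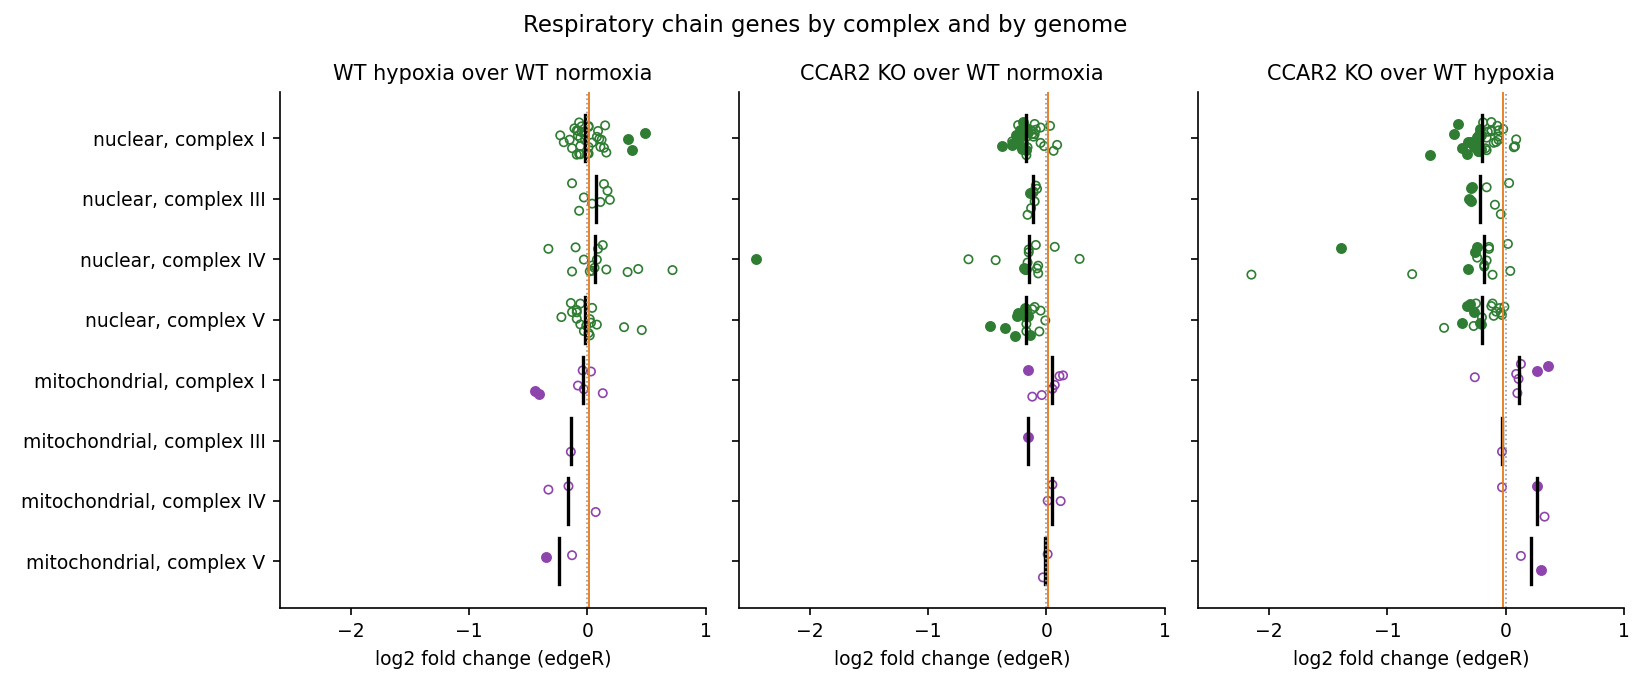
Log2 fold change of each tested respiratory chain gene in the 3 comparisons, by genome and complex. Circles are genes, filled where the adjusted p in edgeR's test was under 0.05, black bars are the group medians and the orange line is the median of all genes tested; the nuclear genes lie around the orange line under hypoxia (median 0.01) and to its left in the knockout (median -0.16).

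The 3 nuclear genes that rose under hypoxia are small accessory subunits of complex I. NDUFB1 was at 15.2, 15.9, 19.1 and 14.7 CPM in WT normoxia and at 17.6, 27.1, 20.8 and 26.3 CPM under hypoxia, so that the groups overlapped by 1 library on each side. Its log2 fold change was 0.49 ± 0.13 (adjusted p = 0.0196). NDUFA1, which is needed for complex I assembly and is encoded on the X chromosome, went from 16.4, 18.9, 23.0 and 16.8 CPM to 21.99, 25.4, 21.7 and 26.8 CPM. Its log2 fold change was 0.34 ± 0.11 (adjusted p = 0.0445), and normoxia replicate 3 lay within the range of hypoxia. NDUFA3 went from 3.39, 3.27, 4.58 and 3.72 CPM to 4.74, 4.996, 4.53 and 5.38 CPM, a log2 fold change of 0.38 ± 0.12 (adjusted p = 0.0464), again with an overlap through normoxia replicate 3. In the 8 fits that each omitted a library, NDUFB1 passed 4 times, NDUFA1 2 times and NDUFA3 1 time, and none of them passed without WT normoxia replicate 1 or 2 or WT hypoxia replicate 4. NDUFB1 was also lost without WT normoxia replicate 4, NDUFA1 without that library or WT hypoxia replicate 1 or 2, and NDUFA3 without any library but WT normoxia replicate 3. NDUFA1 shares exon bases with RNF113A, and NDUFA3 with TFPT, both on the opposite strand.

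The other nuclear subunits did not pass the test. In complex I the values ran from -0.23 for NDUFA5 to 0.49 for NDUFB1, with a median of -0.02 over 36 genes. The 7 nuclear core subunits, which hold the flavin and the iron-sulfur clusters, had a median of 0.04, and the 29 accessory subunits one of -0.02. In complex III the values ran from -0.13 for UQCR10 to 0.19 for UQCR11, with a median of 0.08. Complex IV had a median of 0.06 over 15 genes and ran from -0.33 for COX7B2 to 0.72 for COX6B2, with COX7A1 at 0.43 ± 0.45, COX4I1 at 0.04 ± 0.08 and NDUFA4 at -0.13 ± 0.09. Complex V had a median of -0.02 over 18 genes and ran from -0.22 for ATP5PB, the b subunit of the peripheral stalk, to 0.46 for ATP5ME, the e subunit. The inhibitor of ATP hydrolysis ATP5IF1 was at -0.03 ± 0.10.

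Among the mitochondrial genes, the largest decreases were in MT-ND1 and MT-ND2, the first protein-coding genes downstream of the ribosomal RNAs. MT-ND1 was at 3036, 2824, 2884 and 2820 CPM in WT normoxia and at 2237, 2550, 1889 and 2052 CPM under hypoxia, without overlap. Its log2 fold change was -0.41 ± 0.09 (adjusted p = 0.00562). MT-ND2 went from 2779, 2664, 2631 and 2607 CPM to 2063, 2359, 1669 and 1822 CPM, also without overlap, a log2 fold change of -0.44 ± 0.10 (adjusted p = 0.00697). Both remained past the test with any of the 8 libraries left out. MT-ATP6, the proton channel subunit of ATP synthase, went from 4253, 4222, 4307 and 4066 CPM to 3453, 3908, 2728 and 3208 CPM. Its log2 fold change was -0.35 ± 0.09 (adjusted p = 0.0206), and it passed with 4 of the 8 libraries left out in turn. The call was lost without WT normoxia replicate 1, 2 or 3 or WT hypoxia replicate 4.

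The remaining mitochondrial genes did not pass. MT-CO3 was at -0.33 ± 0.12 (adjusted p = 0.073), MT-CO1 at -0.16 ± 0.08, MT-CYB, the cytochrome b of complex III, at -0.14 ± 0.08 and MT-ATP8 at -0.13 ± 0.15. MT-CO2 at 0.07 ± 0.12, MT-ND3 at 0.13 ± 0.16 and MT-ND4L at 0.03 ± 0.07 were the only mitochondrial genes with values above 0. MT-ATP6 and MT-ATP8, MT-ATP6 and MT-CO3, and MT-ND4 and MT-ND4L share bases, so reads over the shared stretch cannot be assigned to either gene alone. WT hypoxia replicate 2, a library with one of the lowest totals, was the highest of its group for all mitochondrial genes except MT-ND4L. Without it, 23 members were lower and 1 higher by the adjusted p alone, where 16.2% of all genes tested were lower and 13.1% higher. MT-ND1 and MT-ND2 passed both thresholds, and the median of the mitochondrial genes was -0.22 and that of the nuclear genes -0.05. Without WT hypoxia replicate 3 the medians were -0.03 and 0.06, and with the trend on GC content and length removed they were -0.03 and -0.01. What set WT hypoxia replicate 2 apart was not tested.

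**Figure D4:**
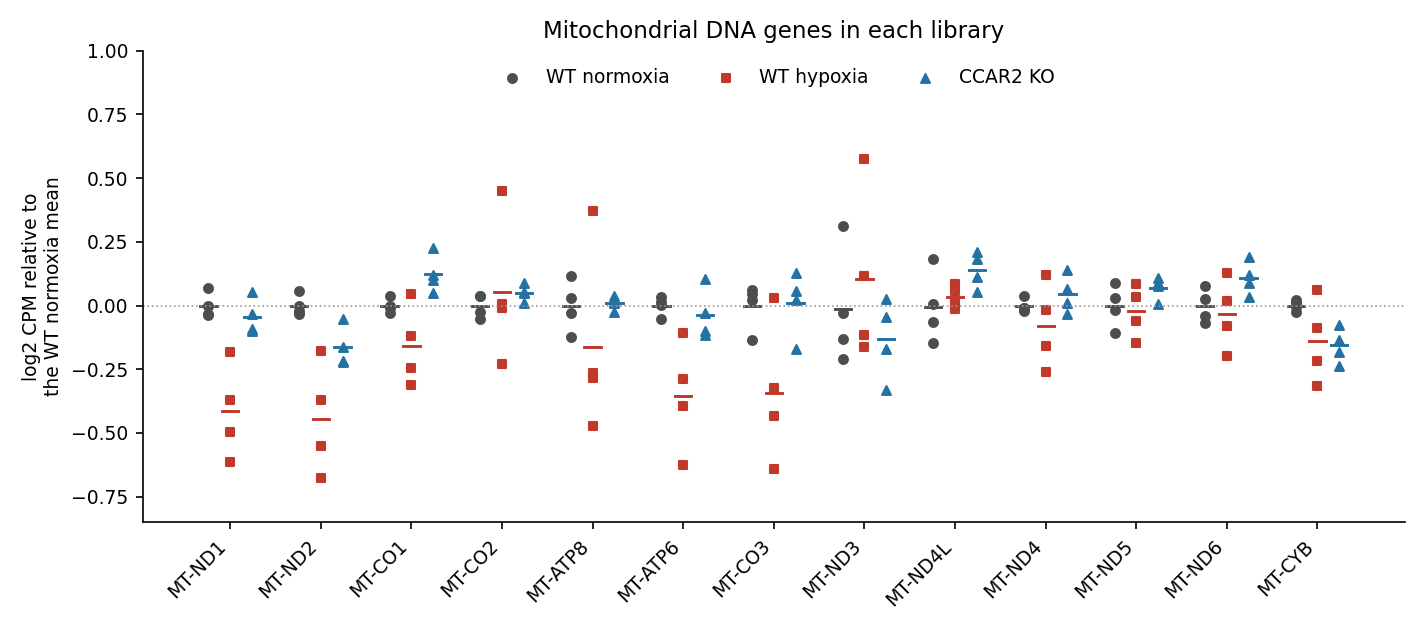
Log2 CPM of the 13 protein-coding genes of mitochondrial DNA in each library, relative to the mean of WT normoxia, in the order of the genes on the genome. Points are the 4 libraries of each group and short lines are group means; MT-ND1, MT-ND2 and MT-ATP6 are below the normoxia libraries in all 4 hypoxia libraries, and the highest hypoxia point is replicate 2 for 12 genes.

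The second comparison asked how the loss of CCAR2 changed the chain under normoxia. Nuclear subunits of all 4 complexes were slightly lower in the knockout, by a median of 0.16 on the log2 scale, whereas the mitochondrial genes had a median of 0.01, the same as the median of all genes tested. In edgeR's test over 21410 genes, COX7B2 alone passed both thresholds, as lower, where 6.73% of all genes tested were higher and 2.94% lower, and it did so only by the filter described above. Without the filter ATP5PB passed in its place, and with at least 10 counts in every library or counts divided by 4 no member did. By the adjusted p alone, 29 members were lower and 0 higher, or 32.2% of the members tested, where 15.4% of all genes tested were lower and 14.9% higher. Of the protein-coding genes tested, 20.4% were lower and 19.3% higher. The 29 include COX7B2, whose adjusted p is not given as support. At an unadjusted p under 0.05, 43 members were lower and 2 higher, where 19.8% of all genes tested were lower and 19.6% higher. DESeq2 gave 39 lower and 1 higher by the adjusted p, where 17.3% and 16.5% of all genes were, and limma-voom 28 lower and 1 higher, where 15.7% were in each direction. Below 0 were 72 of the 77 nuclear genes tested, or 93.5%, against 49% of all genes. The groups did not overlap in 18 members that were lower, COX7B2 among them, and in 1 that was higher, MT-CO1, against 15.2% and 15.6% of all genes tested. Of the 29 members, 14 passed with any of the 8 libraries left out. The count of lower members was 16 without WT normoxia replicate 2 or 3, 15 without CCAR2 KO replicate 4 and 45 without WT normoxia replicate 1. The share of all genes that was lower lay between 12.6% and 15.3% in these fits.

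ATP synthase had the largest share of lower genes, 9 of 18 or 50%, where 15.4% of all genes tested were lower. All 18 had values below 0. ATP5PB, the b subunit that holds the catalytic head in place, was at 232.9, 244.2, 241.8 and 218.5 CPM in WT normoxia and at 177.8, 171.1, 161.3 and 160.3 CPM in CCAR2 KO. The groups stood well apart, with a log2 fold change of -0.48 ± 0.05 (adjusted p = 1.2e-05). ATP5PB shares exon bases with WDR77 on the opposite strand. ATP5MC1, which encodes 1 of the 3 precursors of the same c subunit of the membrane ring, went from 96.1, 107.8, 109.6 and 95.5 CPM to 79.7, 81.3, 83.8 and 76.1 CPM without overlap, a log2 fold change of -0.35 ± 0.05 (adjusted p = 3.3e-04). Its paralogs gave smaller values, -0.18 ± 0.06 for ATP5MC3 (adjusted p = 0.0374) and -0.12 ± 0.05 for ATP5MC2 (adjusted p = 0.0753). ATP5MC3 passed with 3 of the 8 libraries left out in turn.

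In the catalytic head and central stalk, 4 of 5 genes fell: ATP5F1A, ATP5F1B, ATP5F1C and ATP5F1D, by between 0.14 and 0.24 on the log2 scale. The peripheral stalk gene ATP5PO fell by 0.25, while ATP5PD was at -0.01 ± 0.06. ATP5MJ was the only one of the 5 small membrane subunits tested that passed, at -0.27 ± 0.06. ATP5IF1 was at -0.10 ± 0.09.

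In complex I, 13 of 36 nuclear genes fell, or 36.1%, where 15.4% of all genes tested were lower. The median was -0.17. NDUFA7, an accessory subunit, was the lowest, at 20.6, 24.5, 23.7 and 20.6 CPM in WT normoxia and 17.1, 17.6, 19.7 and 14.3 CPM in CCAR2 KO. The groups did not overlap, and the log2 fold change was -0.38 ± 0.09 (adjusted p = 0.00865). NDUFA7 shares exon bases with RPS28, a ribosomal protein gene on the opposite strand. NDUFC2 fell by 0.29 and NDUFA5 by 0.28, and NDUFA9 fell by 0.23 with an adjusted p of 0.00117 in edgeR's test. Of the 7 core subunits, NDUFV1, which binds NADH and the flavin, fell by 0.21 and NDUFS7 by 0.17, and NDUFS1, the largest subunit, was at 73.1 ± 3.13 CPM against 71.4 ± 1.24 CPM. The core subunits had a median of -0.11 and the accessory subunits one of -0.18. The genes that rose under hypoxia, NDUFB1, NDUFA1 and NDUFA3, were at 0.06 ± 0.09, 0.09 ± 0.10 and -0.24 ± 0.14 in the knockout, where none of them passed.

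Complexes III and IV had fewer genes past the test, 12.5% and 26.7% of those tested. Of all genes tested, 15.4% were lower. The genes of complex IV include COX7B2, whose adjusted p is not given as support. In complex III only UQCRC1, a core subunit, fell, by 0.14, and the other 7 genes had values below 0. UQCRC1 passed with 2 of the 8 libraries left out in turn. In complex IV the usual isoform of subunit 4, COX4I1, was at 194.8, 232.1, 233.1 and 209.7 CPM in WT normoxia and at 181.2, 194.1, 203.9 and 186.8 CPM in CCAR2 KO. These overlapped through normoxia replicate 1, and the log2 fold change was -0.18 ± 0.06 (adjusted p = 0.0362). COX5A fell by 0.19 and COX7C by 0.17, and COX6A1, COX6B1, COX8A and NDUFA4 were between -0.15 and -0.07 without passing.

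Of the 13 mitochondrial genes, MT-ND2 and MT-CYB fell in the knockout. They are 15.4% of these genes, the same as the share of all genes tested that were lower. MT-ND2 was at 2575, 2386, 2295 and 2289 CPM in CCAR2 KO, all below the normoxia libraries, a log2 fold change of -0.16 ± 0.05 (adjusted p = 0.0292), and passed with 4 of the 8 libraries left out in turn. The call was lost without WT normoxia replicate 1 or CCAR2 KO replicate 2, 3 or 4. MT-CYB went from 1779, 1748, 1723 and 1765 CPM to 1665, 1598, 1547 and 1488 CPM, also -0.16 ± 0.05 (adjusted p = 0.0226), and was lost only without CCAR2 KO replicate 4. MT-CO1 had all knockout libraries, at 15760, 14650, 14450 and 13960 CPM, above those of normoxia, at 13850, 13470, 13210 and 13400 CPM, but its log2 fold change of 0.12 ± 0.06 did not pass (adjusted p = 0.119).

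Over all genes, though not among the members, longer transcripts had higher values in the knockout. Over 12192 nuclear protein-coding genes at a mean of at least 1 CPM, the median log2 fold change in the knockout was -0.16 for principal transcripts shorter than 1000 bases, -0.09 from 1000 to 2000, -0.02 from 2000 to 4000 and 0.04 above. Of 73 nuclear members at this level, 45 fell in the shortest class, with a median of -0.16. The 15 members from 1000 to 2000 bases had a median of -0.17 and the 8 from 2000 to 4000 bases one of -0.15. Spearman's rho of length with the log2 fold change was 0.216 over the 12192 genes and -0.0218 over the 73 members, given as a description across genes. With a trend on GC content and length removed, an alternative added after seeing the data, the median of the nuclear members was -0.10, with 67 of 77 below 0, and 24 members were lower and 6 higher by the adjusted p, where 20% of all genes were lower and 16.1% higher. The part of length in the lower values was not tested further. In bulk RNA, fewer transcripts in each cell and a different make-up of the culture cannot be told apart.

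**Figure D5:**
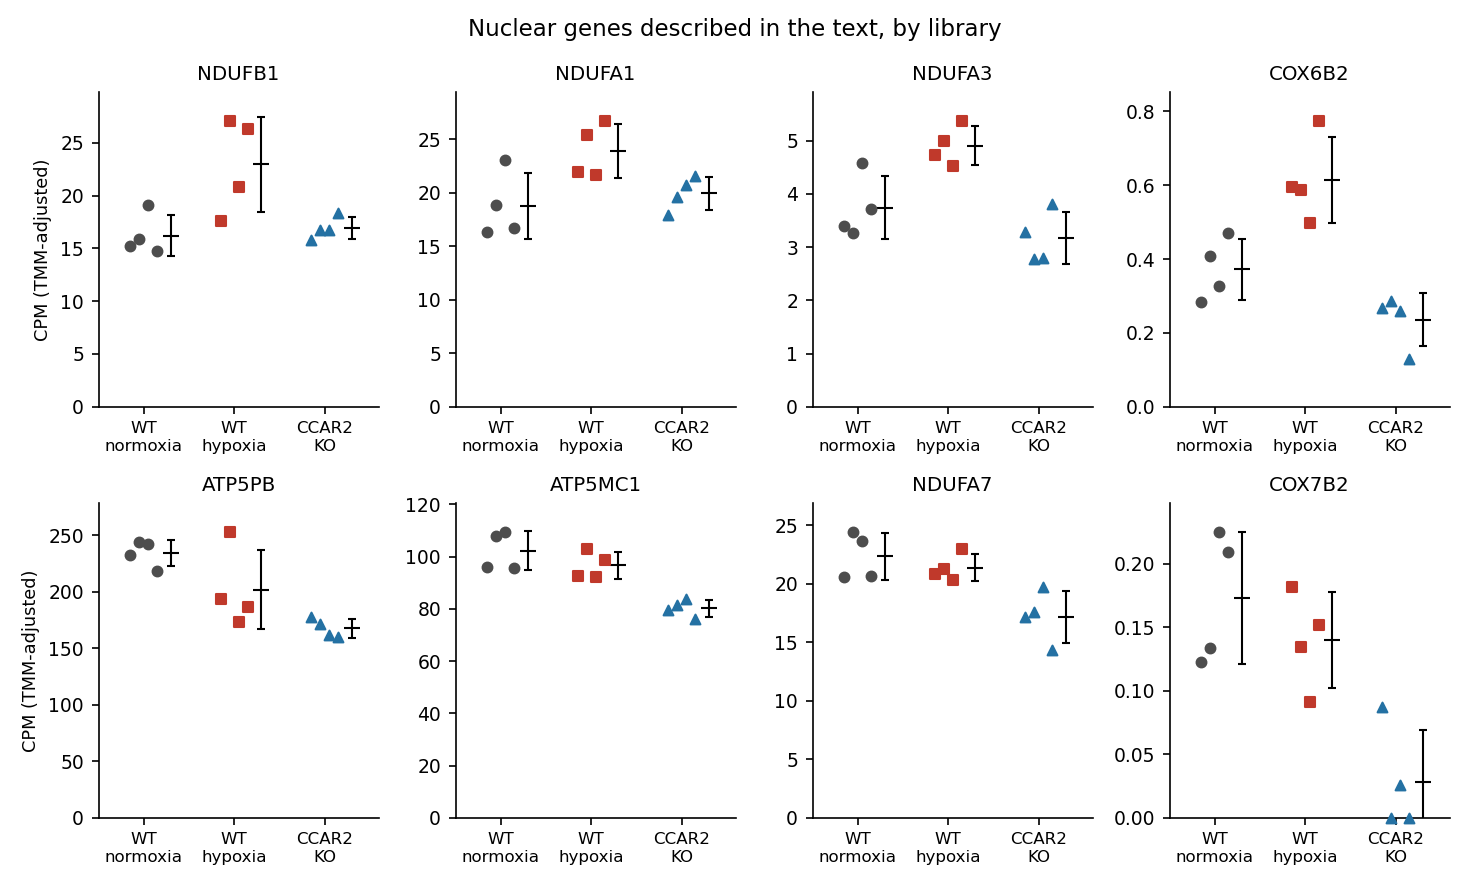
CPM in each library for 8 nuclear genes described in the text, with the mean and SD beside the 4 points of each group. NDUFB1, NDUFA1, NDUFA3 and COX6B2 are highest on average under hypoxia, and ATP5PB, ATP5MC1, NDUFA7 and COX7B2 are lowest in the knockout, with ATP5PB between 160.3 and 177.8 CPM there.

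Set directly against hypoxia, the knockout had lower nuclear and higher mitochondrial values. In edgeR's test over 21158 genes, 2 members passed both thresholds, both lower, where 7.08% of all genes tested were higher and 7.88% lower. COX6B2 had a log2 fold change of -1.39 ± 0.31 (adjusted p = 0.00448) and NDUFA3 one of -0.64 ± 0.13 (adjusted p = 0.00267), and neither pair of groups overlapped. By the adjusted p alone, 28 members were lower, all nuclear, and 4 higher, all mitochondrial, where 17.8% of all genes tested were lower and 17.1% higher. Of the protein-coding genes tested, 21.5% were lower and 22.9% higher. The groups did not overlap in 25 members that were lower, COX7B2 with its very low counts among them, and 2 that were higher, against 17.8% and 18.2% of all genes tested. The median was -0.20 over the nuclear genes, 0.13 over the mitochondrial genes and -0.02 over all genes. For principal transcripts shorter than 1000 bases it was -0.19 over nuclear protein-coding genes and -0.20 over the 45 nuclear members at 1 CPM or more. From 1000 to 2000 bases these medians were -0.10 and -0.19, from 2000 to 4000 bases -0.01 and -0.20, and above 0.12 and -0.09. The part of length in these values was not tested.

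The lower genes included 15 of complex I, 4 of complex III, 4 of complex IV and 5 of complex V. These were 41.7%, 50%, 26.7% and 27.8% of the nuclear genes tested in each, where 17.8% of all genes tested were lower. In complex I the core subunits NDUFV1 and NDUFS7 fell by 0.37 and 0.33, with adjusted p-values of 1.9e-04 and 3.0e-04 in edgeR's test, and NDUFS6, an accessory subunit, fell by 0.40. In complex III UQCRQ fell by 0.31 and UQCRC1 by 0.29. The 4 higher genes were MT-ND1 at 0.36 ± 0.09 (adjusted p = 0.00643), MT-ATP6 at 0.30 ± 0.10, MT-CO1 at 0.27 ± 0.08 and MT-ND2 at 0.27 ± 0.10. Of these, MT-ND1 passed with any of the 8 libraries left out, and MT-ND2, MT-CO1 and MT-ATP6 passed with 1, 3 and 2 of them left out. The count of higher members was 1 without WT hypoxia replicate 1, 3 or 4 or CCAR2 KO replicate 1 or 2, 2 without CCAR2 KO replicate 4, and 10 without WT hypoxia replicate 2. With the trend on GC content and length removed, the nuclear median was -0.11, and COX6B2 alone passed both thresholds.

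The promoters of these genes were read from RefSeq to show the letters upstream of some of the genes that passed the test, chosen after their values and motifs were seen. A window of 250 bases before to 50 after the start was found for 65 of the 94 genes, in 77 windows of build GRCh38.p14. Searched on both strands, the hypoxia response element core ACGTG was present in 24.7% of member windows and in 21.4% of all 35116 windows, and the second form of the core, GCGTG, in 46.8% and 36.5%. The ETS (GABP) letters CCGGAAG were present in 26% and 10.3%, and the palindromic NRF1 consensus in 3.9% and 1.24%. ACGTG found on both strands at the same place, as in CACGTG, was counted once for a window. The 250 bases before the start follow for the 3 genes that rose under hypoxia, in capitals where these letters or their complement occur: NDUFB1 (chr14:92121707-92121956, minus strand), NDUFA1 (chrX:119871582-119871831, plus strand) and NDUFA3 (chr19:54102605-54102854, plus strand).
NDUFB1: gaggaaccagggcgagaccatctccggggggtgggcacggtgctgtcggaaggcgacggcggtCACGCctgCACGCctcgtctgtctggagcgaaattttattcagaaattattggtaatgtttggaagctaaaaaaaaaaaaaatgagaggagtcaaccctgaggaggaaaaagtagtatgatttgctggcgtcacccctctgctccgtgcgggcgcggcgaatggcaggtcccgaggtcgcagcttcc
NDUFA1: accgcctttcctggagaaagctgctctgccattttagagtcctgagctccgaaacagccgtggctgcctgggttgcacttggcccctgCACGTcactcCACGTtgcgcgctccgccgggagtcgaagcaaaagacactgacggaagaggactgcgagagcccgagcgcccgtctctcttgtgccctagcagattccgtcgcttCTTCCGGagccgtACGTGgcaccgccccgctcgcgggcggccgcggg
NDUFA3: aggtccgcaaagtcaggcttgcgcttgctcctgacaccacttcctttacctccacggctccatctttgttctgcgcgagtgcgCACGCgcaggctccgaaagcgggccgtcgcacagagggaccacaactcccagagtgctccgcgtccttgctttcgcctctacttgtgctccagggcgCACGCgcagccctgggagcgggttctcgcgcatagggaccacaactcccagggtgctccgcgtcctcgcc

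NDUFA1 thus held ACGTG or its complement at 3 places and the ETS letters, and NDUFB1 and NDUFA3 held only the complement of GCGTG, each at 2 places. For genes that fell in the knockout, the same stretch is given for ATP5PB (chr1:111449214-111449463, plus strand) and NDUFA7 (chr19:8321376-8321625, minus strand), which had the largest decreases in complexes V and I. ATP5F1C (chr10:7787927-7788176, plus strand) and NDUFB4 (chr3:120596086-120596335, plus strand) are given as they held the NRF1 consensus before the start. ATP5F1C fell by 0.16 and NDUFB4 by 0.17 on the log2 scale, and NDUFB4 passed with 3 of the 8 libraries left out in turn. NDUFA8 also held this consensus, from base -4 across the start, and did not pass the test in the knockout.
ATP5PB: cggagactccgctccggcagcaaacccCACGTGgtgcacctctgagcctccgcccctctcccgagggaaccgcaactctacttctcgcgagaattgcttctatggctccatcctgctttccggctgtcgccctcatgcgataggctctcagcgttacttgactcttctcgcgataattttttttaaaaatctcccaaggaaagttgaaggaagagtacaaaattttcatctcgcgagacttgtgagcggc
NDUFA7: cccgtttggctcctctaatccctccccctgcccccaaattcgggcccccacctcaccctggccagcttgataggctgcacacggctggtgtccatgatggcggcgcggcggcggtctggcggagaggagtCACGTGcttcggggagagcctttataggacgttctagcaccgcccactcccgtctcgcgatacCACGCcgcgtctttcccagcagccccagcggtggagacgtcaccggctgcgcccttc
ATP5F1C: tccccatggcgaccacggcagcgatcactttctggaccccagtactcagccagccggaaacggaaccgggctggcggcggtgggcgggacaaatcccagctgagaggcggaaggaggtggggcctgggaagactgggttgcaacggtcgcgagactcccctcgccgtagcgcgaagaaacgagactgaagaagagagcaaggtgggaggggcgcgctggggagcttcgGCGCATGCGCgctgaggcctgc
NDUFB4: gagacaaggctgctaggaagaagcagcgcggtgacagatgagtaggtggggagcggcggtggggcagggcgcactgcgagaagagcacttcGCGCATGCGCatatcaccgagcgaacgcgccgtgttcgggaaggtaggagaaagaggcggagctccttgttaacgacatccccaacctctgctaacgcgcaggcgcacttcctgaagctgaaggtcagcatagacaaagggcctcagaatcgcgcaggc
ATP5PB and NDUFA7 each held CACGTG. A match of letters is a description and not a binding site.

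Genes that assemble, feed or regulate the chain were followed as a list of 104 genes, of which 103 were found and tested. Under hypoxia 12 were higher and 23 lower by the adjusted p, with a median of -0.06, and in CCAR2 KO 4 were higher and 44 lower, with a median of -0.14. Of all genes tested, 11.6% were higher and 12% lower under hypoxia, and 14.9% and 15.4% in the knockout, and the counts of the shorter lists that follow stand against the same shares. Genes of this list named here without passing both thresholds were chosen after their values were seen. Complex II, which feeds electrons from succinate, is wholly nuclear, and its 4 genes all fell in the knockout: SDHD by 0.38, SDHB by 0.35, SDHA by 0.17 and SDHC by 0.17. Under hypoxia SDHA rose by 0.20 and SDHD fell by 0.20. CYCS, the electron carrier cytochrome c, was the only gene of the list that passed both thresholds as lower in the knockout, at 124 CPM against 186.7 CPM, a log2 fold change of -0.59 ± 0.06 (adjusted p = 1.9e-05). It also fell under hypoxia, by 0.36.

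Assembly factors that changed in the knockout were lower for complexes I, III and IV. Lower by the adjusted p were 5 of 14 for complex I, 3 of 6 for complex III and 8 of 21 for complex IV, where 15.4% of all genes were lower, among them COX11 by 0.43, CMC2 by 0.37 and SCO1, a copper chaperone, by 0.32. Under hypoxia PET100, a small assembly factor of complex IV, passed both thresholds as higher, with a log2 fold change of 0.70 ± 0.17 (adjusted p = 0.0121). COQ8B, an atypical kinase needed for coenzyme Q synthesis, rose by 0.52 under hypoxia and by 0.28 in the knockout.

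Of 22 genes tested that make and process mitochondrial RNA, 8 were lower and 3 higher under hypoxia, and 9 lower and 0 higher in CCAR2 KO, where 12% and 15.4% of all genes were lower. TFAM, the packaging and transcription factor of mitochondrial DNA, went from 160.7 CPM in WT normoxia to 129.9 CPM under hypoxia and 127 CPM in the knockout, log2 fold changes of -0.32 ± 0.06 and -0.34 ± 0.05. LRPPRC, which stabilises mitochondrial mRNAs, fell by 0.31 under hypoxia and by 0.21 in the knockout, and MTPAP, the mitochondrial poly(A) polymerase, fell by 0.30 under hypoxia. The nuclear regulators NRF1 and GABPB1 fell by 0.22 and 0.31 under hypoxia and by 0.21 and 0.28 in the knockout.

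A further list of 7 genes links low oxygen to the mitochondrion. PDK1, which limits pyruvate entry, and BNIP3, a receptor for mitophagy, rose under hypoxia by 1.46 and 1.53 on the log2 scale. LONP1, the protease that degrades COX4I1 protein, rose by 0.52. In the knockout these genes were at 0.18, -0.28 and -0.18 respectively, the last 2 past the test. HIF1A fell by 1.32 under hypoxia and rose by 0.65 in the knockout, where EPAS1, which encodes HIF-2α, rose by 1.42.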

How the data were processed

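RNA-seq was analysed in 12 libraries of MDA-MB-231 cells, grouped by the labels. The deposited table holds estimated counts per gene, which the authors made from reads aligned with Hisat2 and assembled with StringTie, according to their methods; the submitters' processing notes name HISAT2, SAMtools and featureCounts. The genome build is not given in the sources used here. The labels name Trizol and a TruSeq kit, and the methods miRNeasy, poly(A) RNA and NEBNext Ultra.

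The counts, whole as deposited, were filtered with edgeR's filterByExpr, normalized by TMM and tested in R 4.3.3 with edgeR 4.0.16 (quasi-likelihood test, Benjamini-Hochberg adjustment over all genes), in the 8 libraries of each comparison. DESeq2 1.42.0 and limma 3.58.1 (voom) were alternatives. Changed genes needed an adjusted p under 0.05 and, for both thresholds, a log2 fold change of at least 0.5 in size, as in the study. Log2 isoform ratios used a pseudocount of 0.1 CPM. The fits were tested on simulated data. Depth was 68599412 to 213743693 counts, and replicates of a group differed by more than sampling noise (chi-square per degree of freedom 14.01 to 97.58).

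Members and lists were chosen with earlier results of these data known. Values were given for the isoforms and their partners, the ATP5MC genes, ATP5IF1, the mitochondrial genes, members past both thresholds, and the highest and lowest member of each nuclear complex. Other members and pathway genes named were chosen after their values were seen. Counts divided by 4, a GC and length trend, the omission of WT hypoxia replicates 1 and 2 together, and principal transcript length were alternatives added after seeing the data. Annotation came from GENCODE on GRCh38 and promoters from RefSeq. The genes most alike to NDUFA4L2 across libraries are not reported here.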

Additional observations from a re-analysis of the deposited data

Results flagged for a closer look

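In 133 groups of 4 libraries, 3 had a library whose gap to the nearest other, divided by the range of the group, exceeded the limit of Dixon's test at the 95% level. Chance would give 6.65 such groups. ATP5IF1, the inhibitor of ATP hydrolysis, was lowest in CCAR2 KO replicate 1, at 20.28 CPM, with a ratio of 0.851. NDUFA5 of complex I was lowest in CCAR2 KO replicate 3, at 28.7 CPM, with a ratio of 0.868. COX4I2 was highest in CCAR2 KO replicate 4, at 0.0381 CPM, with a ratio of 1, as the other libraries were at 0.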

How the results depend on the processing

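No member passed both thresholds under hypoxia, against 1 in DESeq2, 1 in limma-voom, 1 with all 12 libraries in one fit, 2 each with upper-quartile normalization, at least 10 counts in every library and counts divided by 4, and 5 without WT hypoxia replicates 1 and 2. By the adjusted p alone there were 6, and 0 to 2 past both thresholds with a library left out. The median of the mitochondrial genes under hypoxia was -0.03 with the GC and length trend removed, -0.27 without WT hypoxia replicates 1 and 2, and -0.22 to -0.03 with a library left out. In the knockout, 1 member passed both thresholds, against 0 with at least 10 counts in every library, with counts divided by 4 and with the replicate block, 29 by the adjusted p alone and 0 to 2 with a library left out. That member was COX7B2, but ATP5PB without the filter and without WT normoxia replicate 4, and both passed without CCAR2 KO replicate 1. With all 12 libraries in one fit, 13 members were lower there by the adjusted p, where 12.7% of all genes tested were lower. The mitochondrial median was 0.10 with the trend removed and 0.00 to 0.06 with a library left out, and the nuclear median -0.21 to -0.13. In the direct comparison 2 members passed both, against 1 with the trend removed, 1 at a log2 fold change of at least 1, 32 by the adjusted p alone and 2 to 4 with a library left out, and the nuclear median was -0.11 with the trend removed. The mitochondrial level was 81.1 times the nuclear one, 63.2 times by longest transcript and 37.1 times by principal transcript. COX8A under hypoxia was at -0.16 with the trend removed, past the test, against 0.02. Replicate numbers did not pair the libraries by the rule used (every correlation over 0.1), with correlations of -0.03 to 0.24 under hypoxia and -0.08 to 0.13 in the knockout; 2 of 4 hypoxia and 1 of 4 knockout libraries correlated best with their own number. The replicate block gave 0, 0 and 2 members past both thresholds in the 3 comparisons. In the knockout it gave 42 lower members by the adjusted p, where 17.1% of all genes tested were lower. The causes were not tested. Counts under about 100, as of the isoforms, limit precision.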

Other observations

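Counts in the ribosomal RNA genes of mitochondrial DNA were higher under hypoxia, where those of MT-ND1 and MT-ND2 were lower. MT-RNR1, the small ribosomal RNA, was at 486.1 ± 27.5 CPM in WT normoxia, 870.3 ± 153 CPM under hypoxia and 501.3 ± 19.2 CPM in CCAR2 KO (SD, n = 4). Its log2 fold change was 0.83 ± 0.11 under hypoxia (adjusted p = 4.0e-04 in edgeR's test) and 0.04 ± 0.05 in the knockout. MT-RNR2, the large ribosomal RNA, rose by 0.41 under hypoxia (adjusted p = 0.0113 in edgeR's test). Of the 22 mitochondrial tRNA genes, 8 were higher and 2 lower past both thresholds under hypoxia, with a median of 0.33. By that rule 5.83% of all genes tested were higher and 1.43% lower. In the knockout 3 were higher and 0 lower past both thresholds, where 6.73% and 2.94% of all genes tested were. By the adjusted p alone, 6 tRNA genes were higher and 5 lower in the knockout, where 14.9% and 15.4% of all genes tested were. The tRNA genes had means from 0.539 CPM for MT-TW to 56.2 CPM for MT-TC in WT normoxia. The methods name poly(A) RNA. Whether these counts stem from mature ribosomal RNAs and tRNAs or from longer transcripts that hold them was not tested.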
